A study of Mus musculus with 4 samples.

Results

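The genes described here are 10 feedback and response genes of the ERK pathway, namely Spry1, Spry2, Spry4, Spred1, Spred2, Dusp4, Dusp6, Etv4, Etv5 and Phlda1. They were taken by name, and every probe set that the platform annotation gives to 1 of them alone was used. That gave 15 probe sets, of 22690 on the array, for 9 of the 10 genes, out of 12393 genes with a probe set of their own. No probe set was assigned to Dusp4 alone, and Dusp4 was not analysed here. Expression was measured on Affymetrix arrays in neural stem cells cultured from mouse ganglionic eminences, zones of the ventral forebrain, of embryos at embryonic day 14.5. The Olig1 KO group had 3 arrays, and the wild-type (WT) group had 1. All 4 samples had the C57/Bl6 background, and all cultures were grown without serum in stem cell medium that contained EGF. The labels name neither the Olig1 allele nor the number of embryos behind a culture, and the p-values rest on the spread between these arrays. Nothing in the labels says whether KO replicates 2 and 3 came from separate embryos, so the spread between them may be technical.

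In the ERK cascade, a growth factor receptor such as the EGF receptor activates Ras, which drives the kinases Raf, MEK and ERK in turn. Active ERK raises the transcription of genes whose products act back on the cascade. Sprouty (Spry) and Spred proteins restrain the steps at Ras and Raf, and Dusp6 is a phosphatase that removes the activating phosphates from ERK in the cytoplasm. Etv4 and Etv5 are ETS transcription factors of the PEA3 group, and Phlda1 is a pleckstrin-homology-like protein whose transcript is induced by growth factors. These transcripts are commonly read as a measure of ERK output, and the PEA3 factors and Sprouty genes are known FGF-responsive genes of the developing forebrain.

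The targeted gene comes first. The only Olig1 probe set gave signals of 3840, 4438 and 8548 in KO replicates 1, 2 and 3, against 7618 in the WT array. KO replicate 3 was thus above the WT array, and the groups overlapped. Where the probes lie relative to the mutated part of the gene is unknown, so the labels could not be checked with it, and every direction below rests on them. All 4 arrays had been scaled to a trimmed mean signal of 500.2 to 500.3. The highest signal among 27 bacterial probe sets with no target, used here as the background of an array, was 21.3, 39.99 and 87.8 in KO replicates 1, 2 and 3, against 30.5 in the WT array. Of the 10 neural stem cell markers, 9 were above background in every array, the exception lying in KO replicate 3. Markers of other cell types were above background in some arrays, with the background of KO replicate 3 the highest. Of 5 endothelial markers, 3, 2 and 0 were above background in KO replicates 1, 2 and 3, against 2 in the WT array. Of 6 mesenchymal markers these counts were 4, 4 and 2, against 2, and of 8 microglia and blood markers 6, 3 and 2, against 2.

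The promoters of Dusp6, Etv5 and Spry2 are shown because these genes carry the patterns described below, with Dusp6 and Etv5 low and Spry2 high in the same KO array. Each run is the 250 bases before and 50 bases after a transcript start, 5′ to 3′ on the gene's strand, from RefSeq on GRCm38.p6. Capitals mark ETS motifs (CCGGAA or CAGGAA) and E-boxes (CANNTG), the motif class of basic helix-loop-helix factors such as Olig1, on either strand.
Dusp6, chr10:99262981-99263280, plus strand: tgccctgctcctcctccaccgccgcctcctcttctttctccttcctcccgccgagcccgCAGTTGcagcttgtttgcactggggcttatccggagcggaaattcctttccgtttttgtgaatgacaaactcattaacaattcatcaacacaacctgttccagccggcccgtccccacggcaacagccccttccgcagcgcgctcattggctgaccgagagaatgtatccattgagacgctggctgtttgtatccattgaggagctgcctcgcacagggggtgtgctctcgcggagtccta
Etv5, upstream start, chr16:22439521-22439820, minus strand: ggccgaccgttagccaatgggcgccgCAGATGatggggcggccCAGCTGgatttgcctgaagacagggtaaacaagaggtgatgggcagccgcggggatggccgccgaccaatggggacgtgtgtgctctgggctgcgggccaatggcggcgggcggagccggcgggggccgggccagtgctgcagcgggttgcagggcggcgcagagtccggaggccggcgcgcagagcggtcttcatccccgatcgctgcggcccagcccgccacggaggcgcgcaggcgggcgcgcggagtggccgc
Etv5, downstream start, chr16:22438319-22438618, minus strand: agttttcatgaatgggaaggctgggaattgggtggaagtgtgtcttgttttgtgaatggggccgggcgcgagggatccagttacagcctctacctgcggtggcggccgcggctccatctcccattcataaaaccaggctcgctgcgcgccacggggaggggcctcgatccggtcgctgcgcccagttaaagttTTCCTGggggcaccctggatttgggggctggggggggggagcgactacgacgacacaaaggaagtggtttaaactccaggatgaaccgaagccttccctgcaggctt
Spry2, chr14:105896770-105897069, minus strand: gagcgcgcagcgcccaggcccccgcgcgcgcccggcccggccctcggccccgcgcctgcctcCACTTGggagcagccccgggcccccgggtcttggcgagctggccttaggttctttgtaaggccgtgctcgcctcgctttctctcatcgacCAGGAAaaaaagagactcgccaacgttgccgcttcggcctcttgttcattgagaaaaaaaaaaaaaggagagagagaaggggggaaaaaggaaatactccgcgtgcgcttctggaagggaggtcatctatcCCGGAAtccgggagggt
The promoter table held 7 promoters of 6 of these genes, those of Spry1, Spred1 and Spred2 being the others. The Spry2 promoter held 1 CCGGAA and 1 CAGGAA, the downstream Etv5 promoter and the Spred1 promoter held 1 CAGGAA each, and no other ETS match was found in the 7. Over all 32851 promoters of the table, 14.9% held CCGGAA and 30.6% held CAGGAA. E-boxes were found in the promoters of Spry1 (2), Dusp6 (1), Spry2 (1) and the upstream start of Etv5 (2), against 72.3% of all promoters with at least 1. No E-box overlapped an ETS match. The cyclic AMP response element TGACGTCA (1.79% of all promoters) and the AP-1 motif TGANTCA (7.81%) were in none of the 7. A match is a description of the letters in this window.

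None of the ERK feedback genes passed the test of KO against WT. Differences are given as log2(signal + 14.4), KO minus WT, which understates the change of dim genes. A probe set was tested if its mean log2 value was not among the lowest 40%, which kept 14 of the 15 member probe sets and all 9 genes. In limma, 0 of these 14 had an adjusted p under 0.05, against 0% of all 13575 probe sets tested, and 0 of 14 had an unadjusted p under 0.05, against 2.39%. The adjusted p was 0.9988 for each member. The error was estimated from the KO arrays alone, with a single WT array, and an exact permutation test of 1 array against 3 cannot go below a p of 0.25. Since cultures are bulk samples, fewer cells of a type and less RNA per cell cannot be told apart.

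The place of the WT array relative to the KO arrays was counted for each member probe set. In 2 of the 14 probe sets, those of Spry2 and Phlda1, all 3 KO arrays were above the WT array (14.3%, against 22.6% of all probe sets tested). In 3 of the 14, those of Dusp6 and Spry4, all 3 were below it (21.4%, against 23.3%). Both shares were no larger than the background. The other 9 had KO arrays on both sides of the WT array, which was also the most common case over all probe sets tested. The median difference over the 14 was -0.21, against -0.01 over all probe sets tested. Set against the WT array singly, the median of the members was 0.17, -0.27 and -0.46 in KO replicates 1, 2 and 3. Without KO replicate 3 the median over the members was 0.04, without KO replicate 1 it was -0.28, and with the array pair described below as a block it was 0.16.

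**Figure D1:**
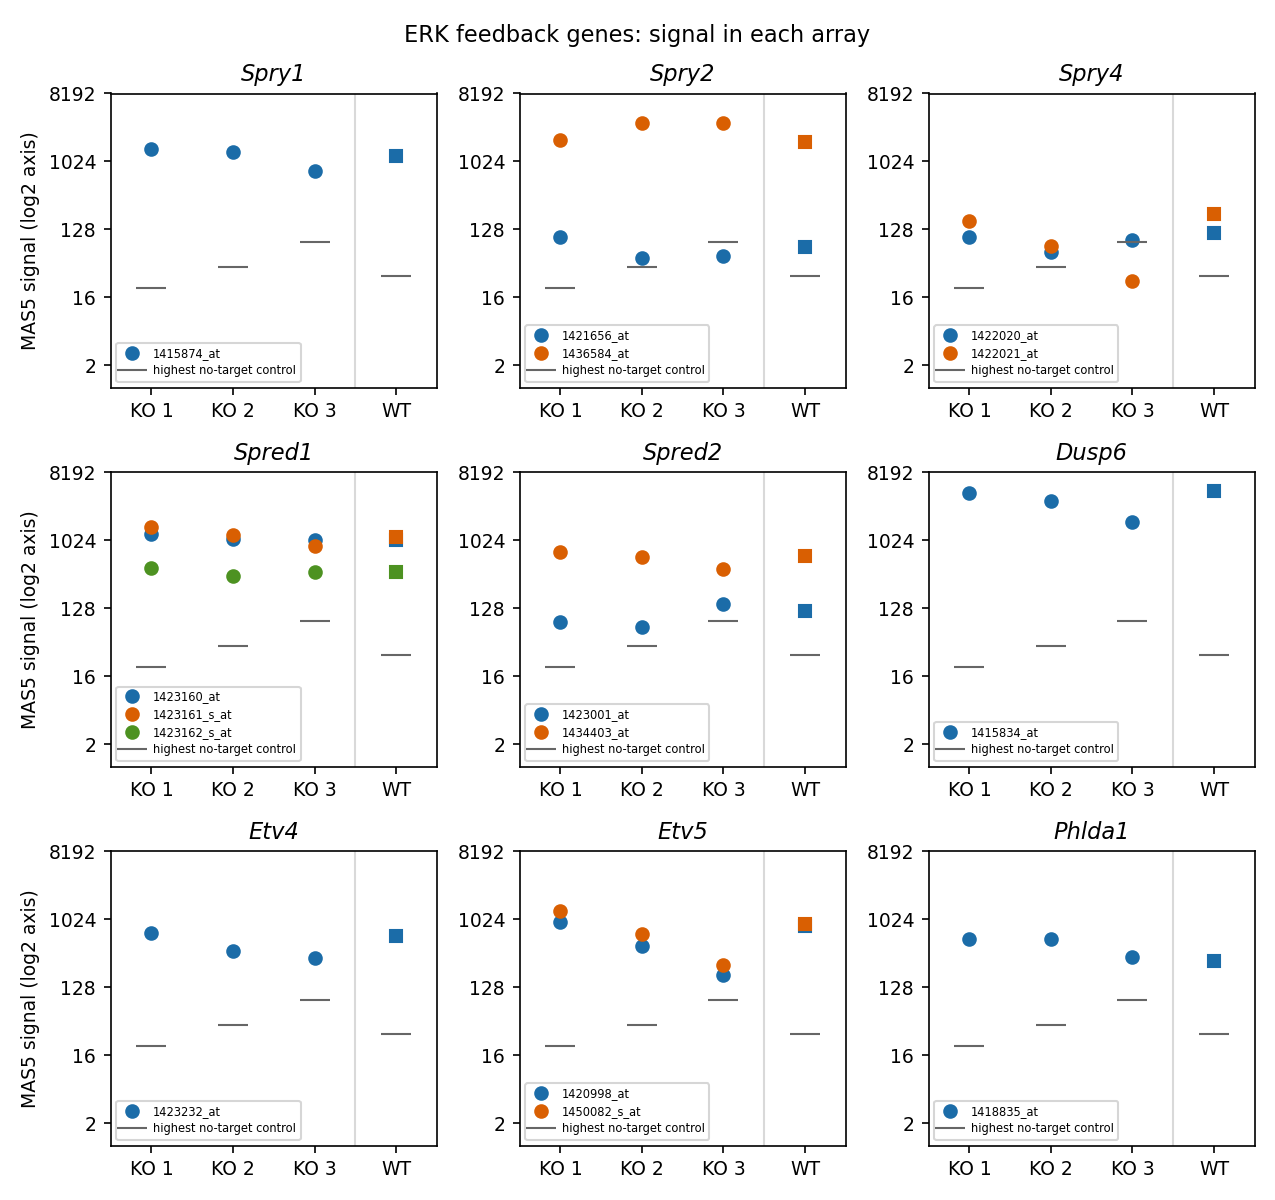
MAS5 signal (log2 axis) of each member probe set in KO replicates 1, 2 and 3 (circles) and in the WT array (square), with colours for probe sets of 1 gene and short lines for the highest control probe set with no target in that array. Etv5 reached 186.4 and 256.6 in KO replicate 3, against 835.1 and 895.0 in WT, while Spred1 1423160_at lay between 1023 and 1260 in all 4 arrays.

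Among the transcription factors, Etv5 had the widest range. Its first probe set (1420998_at) gave signals of 933.2, 457.9 and 186.4 in KO replicates 1, 2 and 3, against 835.1 in the WT array. The second (1450082_s_at), which by its suffix can match several transcripts, gave 1338, 658.1 and 256.6, against 895.0. Both probe sets put KO replicate 1 above the WT array and KO replicates 2 and 3 below it, so the groups overlapped. The KO to WT ratios of the first were 1.12, 0.548 and 0.223 and those of the second 1.49, 0.735 and 0.287 in KO replicates 1, 2 and 3. The highest KO array was 5.01 and 5.21 times the lowest. The fitted differences were -0.92 (SE 0.77) and -0.54 (SE 0.80; limma adjusted p = 0.9988 for each). With the array pair as a block they turned to 0.16 and 0.57, and without KO replicate 3 they were -0.34 and 0.07.

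Etv4, the other PEA3 factor, followed the same order of arrays. Its probe set gave 664.8, 389.0 and 313.3 in KO replicates 1, 2 and 3, against 620.3 in the WT array. KO replicate 1 was 1.07 times the WT array, and KO replicates 2 and 3 were 0.627 and 0.505 times it. The groups overlapped, with a difference of -0.50 (SE 0.47, limma adjusted p = 0.9988). With the array pair as a block it was 0.10.

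Dusp6, the cytoplasmic ERK phosphatase, was lower in all 3 KO arrays, but by very unequal amounts. It gave 4350, 3454 and 1780 in KO replicates 1, 2 and 3, against 4581 in the WT array. KO replicate 1 was at 0.949 times the WT array and KO replicate 3 at 0.389 times it. The groups did not overlap, but the difference of -0.61 (SE 0.53, limma adjusted p = 0.9988) did not pass the test. Without KO replicate 3 it was -0.24, and with the array pair as a block it was -0.075.

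The Sprouty genes did not move together. Spry1 gave 1483, 1354 and 769.4 in KO replicates 1, 2 and 3, against 1220 in the WT array. Thus only KO replicate 3 was below the WT array. Its difference was -0.08 (SE 0.45, limma adjusted p = 0.9988), and 0.21 without KO replicate 3.

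Spry2 ran the other way from Etv5 and Dusp6. Its bright probe set (1436584_at) gave 1997, 3307 and 3281 in KO replicates 1, 2 and 3, against 1835 in the WT array. KO replicates 2 and 3 were 1.80 and 1.79 times the WT array, while KO replicate 1 was 1.09 times it. The groups did not overlap, and the difference was 0.60 (SE 0.41, limma adjusted p = 0.9988). With the array pair as a block it was 0.12. The dim probe set of the same gene (1421656_at), the one left out by the filter, did not show this. It gave 100.8, 53.3 and 56.8, against 75.5 in the WT array, and was at background in KO replicate 3.

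Spry4 gave low signals, close to background in KO replicate 3. One probe set (1422021_at) gave 164.2, 77.6 and 26.5 in KO replicates 1, 2 and 3, against 202.2 in the WT array, and was at background in KO replicate 3, so its fitted difference of -1.31 (SE 0.74, limma adjusted p = 0.9988) has no exact size. It was -0.76 without KO replicate 3 and -0.28 with the array pair as a block. The other (1422020_at) gave 102.2, 64.5 and 92.6, against 112.6, with KO replicate 3 just above background. Both probe sets were lower in all 3 KO arrays, and the second had its lowest value in KO replicate 2, with a difference of -0.35 (SE 0.37).

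The Spred genes encode relatives of Sprouty that bind the Ras regulator neurofibromin. The 3 Spred1 probe sets differed by 0.10, 0.06 and 0.02. The first (1423160_at) gave 1260, 1081 and 1023 in KO replicates 1, 2 and 3, against 1038 in the WT array. The second (1423161_s_at) gave 1551, 1194 and 868.9, against 1126, and the third (1423162_s_at) 433.7, 349.1 and 390.2, against 383.4. In all 3 the WT array lay within the range of the KO arrays in the values as deposited. After quantile normalization the first was above the WT array in all 3 KO arrays, by 0.23, 0.10 and 0.06.

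Spred2 was measured by a bright and a dim probe set, which ordered the arrays differently. The bright one (1434403_at) gave 727.0, 608.6 and 428.5 in KO replicates 1, 2 and 3, against 636.6 in the WT array. The dim one (1423001_at) gave 84.1, 71.7 and 144.0, against 119.4. KO replicate 3 was thus the lowest array with the first and the highest with the second. The differences were -0.14 (SE 0.40) and -0.28 (SE 0.43).

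Phlda1 had the largest difference of any member between KO replicate 1 and the WT array. It gave 569.1, 568.5 and 320.0 in KO replicates 1, 2 and 3, against 287.1 in the WT array. KO replicates 1 and 2 were both 1.98 times the WT array, and KO replicate 3 was 1.11 times it. The groups did not overlap, but the difference of 0.68 (SE 0.43) did not pass the test (limma adjusted p = 0.9988). Without KO replicate 3 it was 0.95, and without KO replicate 1 or KO replicate 2 it was 0.55. The log2 difference between KO replicate 1 and the WT array was larger in size than that of 97.6% of the probe sets tested.

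**Figure D2:**
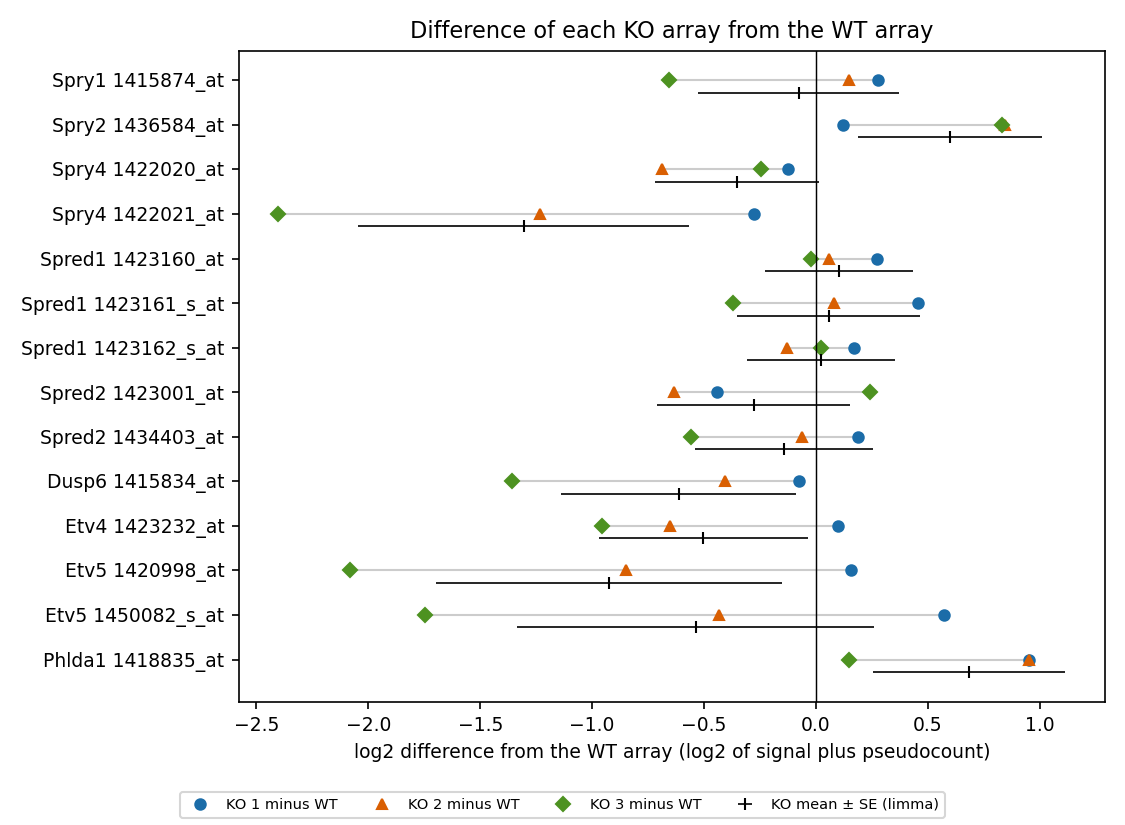
Difference of each KO array from the WT array in log2(signal + 14.4) for the 14 tested member probe sets, with the KO mean and its limma standard error as a black bar. KO replicate 3 reaches -2.08 for Etv5 and -1.36 for Dusp6, whereas KO replicates 1 and 2 are both at 0.95 for Phlda1.

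KO replicate 1 and the WT array were within 1.5-fold of each other in 13 of 14 member probe sets, all but that of Phlda1. A like share, 88.4%, of all probe sets tested met this limit. Etv5 1450082_s_at was just inside it, at 1.49 times the WT array. Its log2 difference between these 2 arrays was larger in size than that of 89.5% of the probe sets tested. KO replicate 1 had the higher signal in 10 of 14, against 51.5%. It was the highest of the 4 arrays in 9 of 14 probe sets, from 6 of the 9 genes, against 25% of all. KO replicate 3 was the lowest in 9 of 14, from 7 of the 9 genes, against 35.7%. Probe sets of 1 gene share their transcripts, so these counts hold fewer independent values than probe sets.

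The spread over the KO arrays showed which members differed most between arrays of the same labelled genotype. The SD of the log2 values over the 3 KO arrays was 1.12 and 1.16 for the Etv5 probe sets, larger than in 98.6% and 98.8% of the probe sets tested. It was 0.67 for Dusp6, larger than in 91.1%. Spry4 1422021_at was at background in KO replicate 3, so its SD has no exact size. The median over all probe sets tested was 0.30. Etv4 (0.54) and Spry1 (0.51) were in the upper part of the distribution, larger than 83.4% and 80.3%. The Spred1 probe sets 1423160_at and 1423162_s_at both had an SD of 0.15, larger than 19.0% and 18.4%. The third Spred1 probe set (1423161_s_at) had an SD of 0.41, larger than 69.8%.

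**Figure D3:**
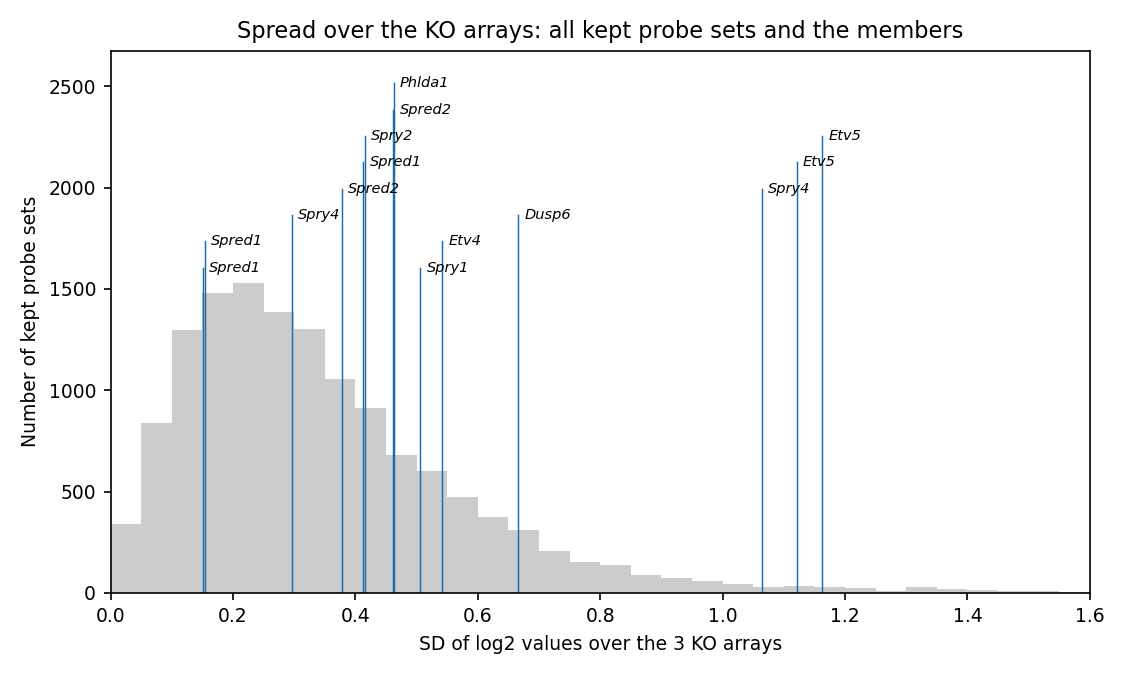
Histogram of the SD of log2 values over the 3 KO arrays for the 13575 probe sets tested (grey bars, SD up to 1.6 shown), with a blue line for each of the 14 member probe sets. The 2 Etv5 lines stand at 1.12 and 1.16, in the thin tail. The Spry4 line beside them includes a KO replicate 3 signal at background and has no exact place. Of the Spred1 lines, 2 at 0.15 lie below the median of 0.30 and 1 at 0.41 lies above it.

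KO replicates 2 and 3, in which Etv5 and Etv4 were below the WT array, also differed from the other pair in signals outside this pathway. The median signal of the 18S ribosomal RNA probe sets was 7.24, 946 and 2823 in KO replicates 1, 2 and 3, against 4.64 in the WT array. The median ratio of the 18 spiked-in control probe sets to the WT array was 0.90, 1.89 and 2.75. The signal of the 3' over the 5' beta-actin probe set was 1.251, 1.30 and 1.82, against 1.11, while that of Gapdh was 0.79, 1.03 and 0.84, against 0.76, highest in KO replicate 2. Xist gave 8472, 160.9 and 46.5, against 9480, and the Y-linked gene Eif2s3y gave 1.53, 653.8 and 1160, against 0.61. KO replicate 1 and the WT array thus formed a pair in rRNA, spike-in and sex-linked signals, and KO replicates 2 and 3 another. The summed signal of the 10 neural stem cell markers was 38226, 53708 and 57984 in KO replicates 1, 2 and 3, against 41343 in the WT array, and that of the 6 astrocyte markers was 3806, 2475 and 3622, against 4877. That of the 8 neuron markers, 4 of them above background in every array, was 2099, 1391 and 1518, against 2567, and that of 7 oligodendrocyte lineage markers, also 4 of them above background throughout, was 2349, 2690 and 4119, against 2438. Mog, a marker of mature oligodendrocytes, was at background in every array. The part of RNA quality, labelling, sex or cell makeup in the low Etv5, Etv4 and Dusp6 signals was not tested. Within the first pair each genotype had 1 array. With the pair as a block, the KO effect is KO replicate 1 minus WT, and the spread comes from the difference between KO replicates 2 and 3 (1 residual degree of freedom). In that limma fit 0 members had an adjusted p under 0.05, and the lowest unadjusted p of a member was 0.11, for Phlda1. After quantile normalization the difference of KO replicate 3 from the WT array was -1.98 and -1.63 for Etv5, -1.36 for Dusp6, -0.82 for Etv4 and 0.81 for the bright Spry2 probe set.

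Other genes of the pathway, in lists of ligands, receptors, adaptors and Ras proteins, kinases, other brakes and other ERK-induced genes, also gave no call. In the same limma fit, 0 probe sets of any list had an adjusted p under 0.05, against 0% of all 13575 tested. An unadjusted p under 0.05 was found for 1 of 10 ligand and 1 of 34 ERK-induced probe sets, against 2.39% of all tested. So few probe sets are no result about these lists. Of 10 tested ligand probe sets, every KO array was above the WT array in 4 and below it in 1 (40% and 10%, against 22.6% and 23.3% of all probe sets tested), with a median of 0.25. Pdgfc, a PDGF receptor ligand, gave 136.8, 172.6 and 126.0 in KO replicates 1, 2 and 3, against 72.0 in the WT array (difference 0.87, SE 0.35). Tgfa, a ligand of the EGF receptor, gave 109.0, 120.1 and 116.9, against 68.5 (0.65, SE 0.32). All 3 KO arrays were above the WT array in both genes, but the limma adjusted p was 0.9988 for each. From each list, the 2 probe sets with the largest limma t in size are named. That choice favours probe sets with all KO arrays on 1 side of the WT array.

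Of 12 receptor probe sets, from 6 genes, all 3 KO arrays were above the WT array in 2 and below it in 5 (16.7% and 41.7%, median -0.04). Over all probe sets tested these shares were 22.6% and 23.3%. Both leading ones belonged to Fgfr3, an FGF receptor gene. One gave 218.4, 157.0 and 306.6 in KO replicates 1, 2 and 3, against 446.0 in the WT array (-0.98, SE 0.43), and the other 1023, 565.8 and 775.9, against 1399 (-0.86, SE 0.41). Among 27 probe sets of adaptors and Ras proteins, 7 were higher and 10 lower (25.9% and 37.0%, median -0.02). The Ras-related gene Rras2 differed by -0.87 (SE 0.38) and the docking protein gene Gab1 by 0.79 (SE 0.37). In both genes all 3 KO arrays lay on 1 side of the WT array, which their choice by limma t favours.

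Of 12 kinase probe sets, all 3 KO arrays were above the WT array in 2 and below it in 4 (16.7% and 33.3%, median -0.14). The shares over all probe sets tested were 22.6% and 23.3%. Map2k1, which encodes the kinase MEK1, gave 1900, 1670 and 1142 in KO replicates 1, 2 and 3, against 2253 in the WT array (-0.55, SE 0.40). Mknk2, a kinase gene downstream of ERK, gave 185.9, 92.5 and 80.7, against 247.5 (-1.05, SE 0.48), and was at background in KO replicate 3. Both had their lowest signal in KO replicate 3, as did Etv5, Dusp6 and 35.7% of all probe sets tested. For Mknk2 that signal has no exact size.

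Of 27 probe sets of other brakes, 5 lay above and 5 below the WT array with every KO array (18.5% each, median -0.10). For all probe sets tested the shares were 22.6% and 23.3%. The Ras GTPase-activating protein gene Rasa2 differed by 0.66 (SE 0.37), and the phosphatase gene Dusp8, which acts mainly on other MAP kinases, by 0.52 (SE 0.35). Among 34 probe sets of other ERK-induced genes and their factors, 5 were higher and 5 lower (14.7% each, median -0.11), and the median was 0.15, -0.09 and -0.44 in KO replicates 1, 2 and 3 set singly against the WT array. KO replicate 3 also had the lowest median of the feedback members. Elk1, an ETS factor gene phosphorylated by ERK at the protein level, gave 126.6, 121.0 and 95.6 in KO replicates 1, 2 and 3, against 235.8 in the WT array (-0.97, SE 0.34, unadjusted p = 0.0259, limma adjusted p = 0.9988). Plaur, the urokinase receptor gene, differed by 0.70 (SE 0.37) and was at background in KO replicate 3.

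**Figure D4:**
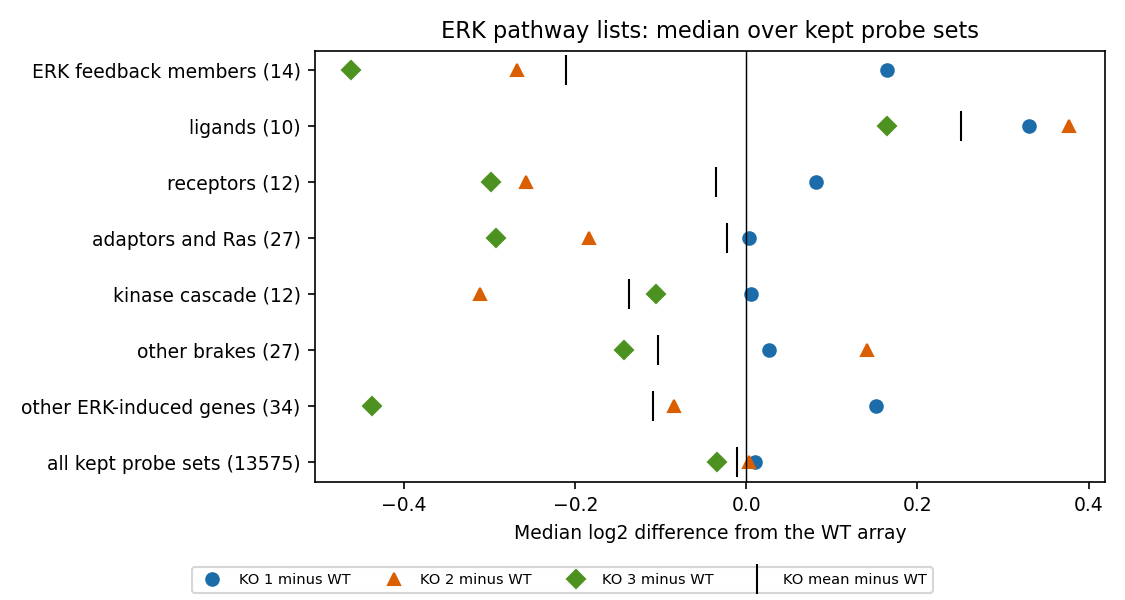
Median log2 difference from the WT array over the tested probe sets of each ERK pathway list (number of probe sets in brackets) and over all probe sets, for each KO array and for the KO mean. In KO replicate 3 the medians are -0.46 for the feedback members and -0.44 for other ERK-induced genes, against -0.03 for all probe sets. They are -0.30 for receptors, -0.29 for adaptors and Ras, -0.14 for other brakes, -0.11 for kinases and 0.16 for ligands.

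The probe sets most like the mean of the members were found by the root-mean-square distance between log2 profiles over the 4 arrays, each centred on its own mean. The mean profile of the 14 tested members was 0.34, -0.04 and -0.48 in KO replicates 1, 2 and 3, against 0.18 in the WT array. It includes the Spry4 signal at background in KO replicate 3, and not every member had it. In KO replicate 3 the bright Spry2 probe set was 0.83 above the WT array, and Spred2 1423001_at was 0.24 above it. The 5 nearest were those of Gtpbp4, a nucleolar GTPase gene of ribosome assembly, Ythdf3, a reader of methylated RNA, the protein phosphatase gene Ppm1g, Ubxn6 and the peroxisomal carrier gene Slc25a17, at distances of 0.0117 to 0.0292. Gtpbp4 gave signals of 1411, 1083 and 805.9 in KO replicates 1, 2 and 3, against 1279 in the WT array. With 4 arrays and 13575 probe sets, such near matches are a description of these arrays.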

How the data were processed

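The authors deposited 1 MAS5 signal intensity per probe set and array, on a linear scale made with MAS5, per the submitters' processing notes. The MAS5 version is not given in the sources used here. The 2% trimmed mean of each array was 500.2 to 500.3, so no further normalization was applied. Groups came from the genotype label. KO replicates 2 and 3 are the arrays titled 37 and 38. Probe sets were named from the platform annotation (20393 with 1 symbol, 691 with several, 1606 with none), and symbols were updated by gene identifier from RefSeq (GRCm38.p6). The 64 control probe sets were left out. Intensities became log2(signal + 14.4), the pseudocount being 0.1 times the median of all values. The lowest 40% of 22626 probe sets by mean were left out. KO and WT were compared with limma 3.58.1 in R 4.3.3 (lmFit, eBayes, two-sided, Benjamini-Hochberg over 13575 probe sets, threshold 0.05), with 2 residual and 4.75 prior degrees of freedom. The fit was tested on simulated data. Precision is limited by having 4 arrays.

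The text names all member probe sets, Olig1, the 2 probe sets of each pathway list with the largest moderated t in size, and the 5 with the profile nearest to the members' mean. Members, lists and the pair of arrays were chosen with earlier results of these data known. The alternatives were 2 other scalings, 2 pseudocounts, 2 filters, 1 value per gene, other eBayes options, the array pair as a block, and leaving out each KO array.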

Additional observations from a re-analysis of the deposited data

How the results depend on the processing

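Of the 14 tested member probe sets, none was called at a limma adjusted p under 0.05 under any alternative run. Without KO replicate 1, the difference was -1.46 for Etv5 1420998_at, -1.82 for Spry4 1422021_at and 0.84 for Spry2 1436584_at. With all arrays these were -0.92, -1.31 and 0.60. Other members moved too, with Dusp6 going from -0.61 to -0.88, whereas Phlda1 shrank from 0.68 to 0.55. The Spry4 probe set was at background in KO replicate 3, so its differences have no exact size. With all probe sets, 0 were called except without KO replicate 1, where 5 were, none of them a member, so the range with 1 KO array left out was 0 to 5. The named genes among these 5 were Tmem87a and the sex-linked genes Xist and Eif2s3y, whose signals separate the array pairs. The number of member probe sets lower in all KO arrays, 3 as reported, was 1 when the lowest 60% were left out, which kept 11 members, and 3 to 7 with 1 KO array left out (7 without KO replicate 1). The number higher in all KO arrays, 2 as reported, was 2 to 5 with 1 KO array left out (5 without KO replicate 3). Leaving out a KO array can only keep or raise both counts. No share over all probe sets stands beside them, so the rises are not a result about the members. The members' median difference of -0.21 became 0.16 with the array pair as a block, a fit in which the KO effect is KO replicate 1 minus WT by construction. In that fit the difference turned to 0.28 for Spry1, 0.16 and 0.57 for the Etv5 probe sets, 0.10 for Etv4 and 0.19 for the bright Spred2 probe set (1434403_at). Without KO replicate 3 the sign turned for Spry1 (0.21), the bright Spred2 probe set (0.062) and Etv5 1450082_s_at (0.068). Without KO replicate 1 it turned for Spred1 1423161_s_at (-0.14) and 1423162_s_at (-0.053). In each case the left-out array was the KO array with the largest difference from the WT array in size. Why that array differed was not tested. Over the 3 left-out arrays, the reported difference ran from -0.25 to 0.21 for Spry1, -0.31 to 0.062 for Spred2 1434403_at, -1.09 to 0.068 for Etv5 1450082_s_at, -0.14 to 0.27 for Spred1 1423161_s_at and -0.053 to 0.098 for Spred1 1423162_s_at. Scaling, pseudocount, filter, 1 value per gene and eBayes options reversed the direction of none of the 14 tested member probe sets. The dim Spry2 probe set (1421656_at), which is not among them, had a difference of -0.13, opposite to the bright one. The labels give the groups no shared replicate numbers, so the array pair, taken from the signals, was the only block fitted. Signals of Spry4 and the dim Spry2 probe set lay near background, which limits what they can show.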
